A study of Canis lupus familiaris with 14 samples.

Results

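The genes described here are 8 genes of the osteoclast, the cell that resorbs bone, chosen by name for their roles in resorption and cell fusion: TNFRSF11A, OCSTAMP, DCSTAMP, CALCR, ATP6V0D2, ACP5, CTSK and MMP9. Of the 8, 7 could be paired with a dog gene identifier through the gene names in the study's supplementary tables. DCSTAMP had no identifier among the rows held and was not analysed here. The 7 paired genes stood among 27655 genes with at least 1 count, of 30951 genes in the table. Polyadenylated RNA was sequenced from the osteosarcoma, a malignant tumor that forms bone, and from the second phalanx (P2) of the amputated leg of the same 7 dogs, A to G. The study asked which genes differ between tumor and bone in the group, and how far such differences hold in each dog. Each dog gave 1 bone and 1 tumor library, so no value has a replicate within a dog.

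The tumor of dog A, a Golden Retriever, lay in the left distal radius, that of dog B, a Rottweiler, in the left distal femur, and that of dog C, a Doberman Pinscher, in the left distal radius. Dog D, a Greyhound, had its tumor in the left proximal humerus, and dog E, labelled Great Pyranees, in the left distal radius. Dog F, also a Golden Retriever, had its tumor in the right distal radius, and dog G, also a Greyhound, in the right distal tibia. All dogs were sampled before chemotherapy. By the study's account, the bone samples had been freed of marrow and of cells outside the matrix. The study describes no such step for the tumors and says that they may hold cells of many kinds. Bone and tumor thus differ in this step, in their place in the limb and in the way their RNA was extracted, and these cannot be told apart from the difference between the tissues. The study named bone B and tumor A as the samples with the least intact RNA.

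Osteoclasts form when precursors of the monocyte lineage fuse into large cells with several nuclei. The ligand RANKL, made by cells of the osteoblast lineage among others, binds its receptor RANK on the precursor and starts this program. The mature cell seals off a patch of bone, acidifies it with a proton pump and secretes enzymes that break down the exposed matrix, and calcitonin halts it through the calcitonin receptor. Osteoclasts or giant cells like them are also found in osteosarcoma, in numbers that vary between tumors.

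Total counts were between 22564544 and 34479429 in bone and between 18650945 and 32887213 in tumor. Levels are given as CPM, counts scaled to a common library size after TMM normalization. They compare libraries for 1 gene and not 1 gene with another, since transcript lengths were not used here. Together the 7 genes took between 0.435% and 1.90% of all counts in bone. In tumor they took 2.68% in dog D and 0.0263% in dog F. As a check of the tissue labels, SOST and MEPE, genes of the osteocyte, were at 23.9 to 1788 CPM and 10.7 to 2065 CPM over the bones. Each dog had less of both in its tumor, with tumor medians of 0.590 and 0.412 CPM, but the highest tumors, at 129 and 131 CPM, stood above the lowest bones. All 5 proliferation genes listed (MKI67, TOP2A, CCNB1, CDK1 and BUB1) were higher in tumor than in bone of all 7 dogs, each with an FDR of at most 0.00906 (edgeR).

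The fitted log2 fold changes of tumor over bone were all below 0, between -4.79 for CALCR and -1.26 for CTSK, but the dogs did not all go the same way. CALCR was lower in all 7 tumors, and 5 other genes were lower in 6 tumors and higher in tumor D. CTSK was lower in 5 tumors. In tumor F, 5 genes were between 90.6-fold and 383-fold below the bone of the same dog, while CTSK was 9.81-fold and TNFRSF11A 6.93-fold below it. Fewer osteoclasts in a sample and less of the RNA in each osteoclast cannot be told apart in these data. How many osteoclasts were left in the bone samples after the removal of marrow was not measured here.

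The quasi-likelihood test of edgeR was fitted to all genes with dog and tissue as terms, and its p-values were adjusted over all of them (FDR). Genes counted as called had an FDR under 0.05, a fold change over 2 and a base mean over 10 normalized counts. Only CALCR was called, 1 of 7 genes, while 1.79% of the 27655 genes tested were called lower in tumor. At an unadjusted p under 0.05, 6 of the 7 were lower, all but ATP6V0D2, against 9.48% of all genes. The DESeq2 Wald test called all 7 as lower, against 6.85% of the 18004 genes to which it gave an adjusted p. Names could be paired mainly for genes that the study itself had called on these libraries, since 76.4% of the 2292 paired genes pass that Wald test here, so these counts are not independent evidence of the direction. A lower level in at least 6 of 7 tumors was found for 6 of the 7 genes and for 12.8% of all genes.

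**Figure D1:**
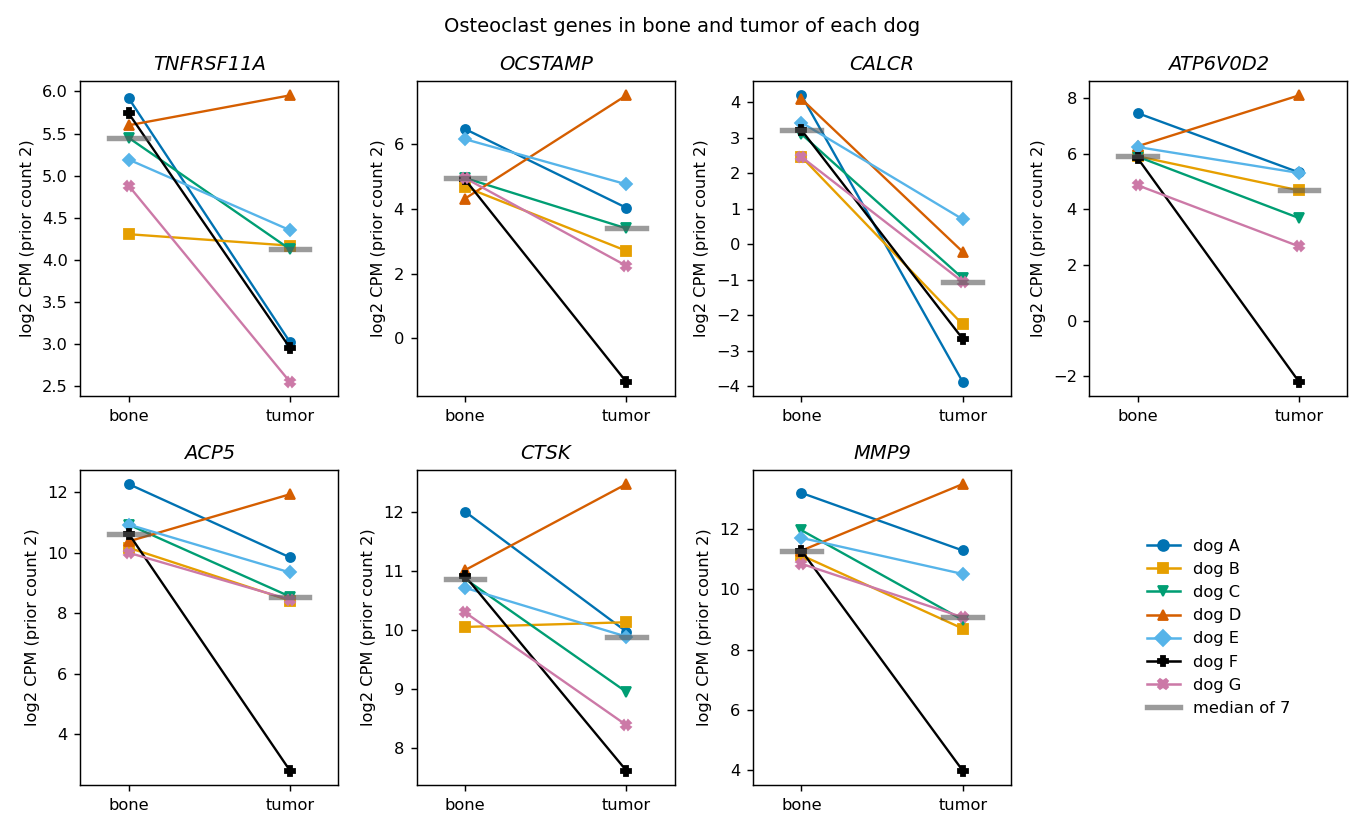
Levels of the 7 osteoclast genes in bone and tumor, 1 panel per gene, on the y axis as log2 CPM with a prior count of 2; each line joins the bone and the tumor of 1 dog and the gray bar is the median of 7. The tumor of dog D lies above its bone in every panel but that of CALCR, the lines of dog F drop furthest for MMP9, ACP5, ATP6V0D2 and OCSTAMP, and for CALCR no tumor reaches the lowest bone.

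TNFRSF11A (ENSCAFG00000000075) encodes RANK, the receptor that starts osteoclast formation. It was between 19.7 CPM in bone B and 60.5 CPM in bone A, with a median of 43.7 CPM. In tumor it was between 5.80 CPM in dog G and 61.9 CPM in dog D, with a median of 17.4 CPM. The ranges overlapped, since tumor D stood above every bone. Tumor B was at 17.9 CPM against 19.7 CPM in its bone, a ratio whose counting interval holds 1 (1.10-fold, exact 95% interval 0.978 to 1.23). The fitted log2 fold change was -1.43 ± 0.43 (SE, n = 7 dogs) with an FDR of 0.0996 (edgeR), so the gene did not pass the test. It had the smallest fold range of the members over the tumors, setting aside CALCR with its level of 0.

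OCSTAMP (ENSCAFG00000010435) encodes a membrane protein required for the fusion of osteoclast precursors. Bone levels were between 19.8 CPM in dog D and 87.4 CPM in dog A, with a median of 30.6 CPM. Tumor levels were between 0.328 CPM in dog F, from 11 counts, and 179 CPM in dog D, with a median of 10.4 CPM. Dog D therefore had both the lowest bone and the highest tumor, with 9.08-fold more OCSTAMP in its tumor than in its bone. This was the widest gain of any member in any dog. Over the group the log2 fold change was -1.97 ± 0.84 (SE, n = 7 dogs; edgeR FDR 0.254).

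CALCR (ENSCAFG00000002033), the calcitonin receptor, is used as a marker of the mature osteoclast. It was between 5.43 CPM in bone G and 18.2 CPM in bone A, with a median of 9.22 CPM. Tumors held between 0 and 37 counts, or 0 in dog A to 1.56 CPM in dog E, with a median of 0.412 CPM. Every tumor was below every bone, which was the case for 1.5% of all genes and for no other member. The log2 fold change was -4.79 ± 0.67 (SE, n = 7 dogs) with an FDR of 0.00561 (edgeR).

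The low level of CALCR was also found in the tumor that was richest in the other osteoclast genes. In dog D it fell 21.4-fold (exact 95% counting interval 14.4 to 33.3), from 643 counts in bone to 25 in tumor. The smallest difference was in dog E, at 6.86-fold (interval 4.83 to 9.98), and in dog F it was 103-fold (interval 35.0 to 502) on 3 tumor counts. Tumor A, a library of less intact RNA, had 0 counts against 564 in its bone, which puts it at least 78.6-fold lower by the exact 95% interval, and at 96.9-fold against a floor of 3 counts in that library. RNA integrity was not tested for its part in this. CALCR was further below bone than CTSK and TNFRSF11A in 7 of 7 dogs, and further than MMP9, ACP5, ATP6V0D2 and OCSTAMP in 6 of 7, the exception being dog F. These differences between genes were not tested.

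ATP6V0D2 (ENSCAFG00000008749) encodes the osteoclast form of a subunit of the proton pump that acidifies the resorption space, and it also takes part in fusion. In bone it was between 29.1 CPM in dog G and 176 CPM in dog A, with a median of 60.1 CPM. In tumor it was between 0.149 CPM in dog F and 275 CPM in dog D, with a median of 25.6 CPM. Tumor F held 5 counts against 2377 in its bone, a 383-fold difference (exact 95% interval 164 to 1179). Dog D went the other way, with 3.55-fold more in tumor. The log2 fold change was -1.81 ± 0.85 (SE, n = 7 dogs; edgeR FDR 0.310), the highest FDR of the 7 genes.

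ACP5 (ENSCAFG00000017319) encodes tartrate-resistant acid phosphatase, the enzyme whose stain identifies osteoclasts in tissue sections. Bone levels were between 1026 CPM in dog G and 4969 CPM in dog A, with a median of 1589 CPM. Tumor levels were between 6.83 CPM in dog F and 3932 CPM in dog D, with a median of 375 CPM. Apart from tumor D, every tumor was below the lowest bone. The log2 fold change was -2.01 ± 0.83 (SE, n = 7 dogs; edgeR FDR 0.234). The difference within dog F was 233-fold (exact 95% interval 204 to 266), and in dogs A, B, C, E and G it was between 2.93-fold and 5.39-fold.

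CTSK (ENSCAFG00000012093) encodes cathepsin K, the protease that degrades bone collagen in the acid space. It was between 1066 CPM in bone B and 4125 CPM in bone A, with a median of 1873 CPM. In tumor it was between 197 CPM in dog F and 5700.0 CPM in dog D, with a median of 952 CPM. Tumor B was at 1126 CPM, slightly above the 1066 CPM of its own bone, and tumor D was 2.74-fold above its bone. In dog F the difference was 9.81-fold (exact 95% interval 9.56 to 10.1), far from the 233-fold of ACP5 in the same pair of libraries. The log2 fold change was -1.26 ± 0.53 (SE, n = 7 dogs; edgeR FDR 0.245), the smallest of the 7.

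MMP9 (ENSCAFG00000009905) encodes a gelatinase that osteoclasts secrete, and neutrophils and macrophages also make it. Bone held between 1839 CPM in dog G and 9358 CPM in dog A, with a median of 2488 CPM. Tumor held between 15.8 CPM in dog F and 11472 CPM in dog D, with a median of 538 CPM. MMP9 alone took 1.42% of all counts of tumor D and 0.00182% of those of tumor F. Dog D had 4.61-fold more in tumor than in bone, and dog F had 157-fold less (exact 95% interval 144 to 172). The log2 fold change was -2.08 ± 0.87 (SE, n = 7 dogs; edgeR FDR 0.241).

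**Figure D2:**
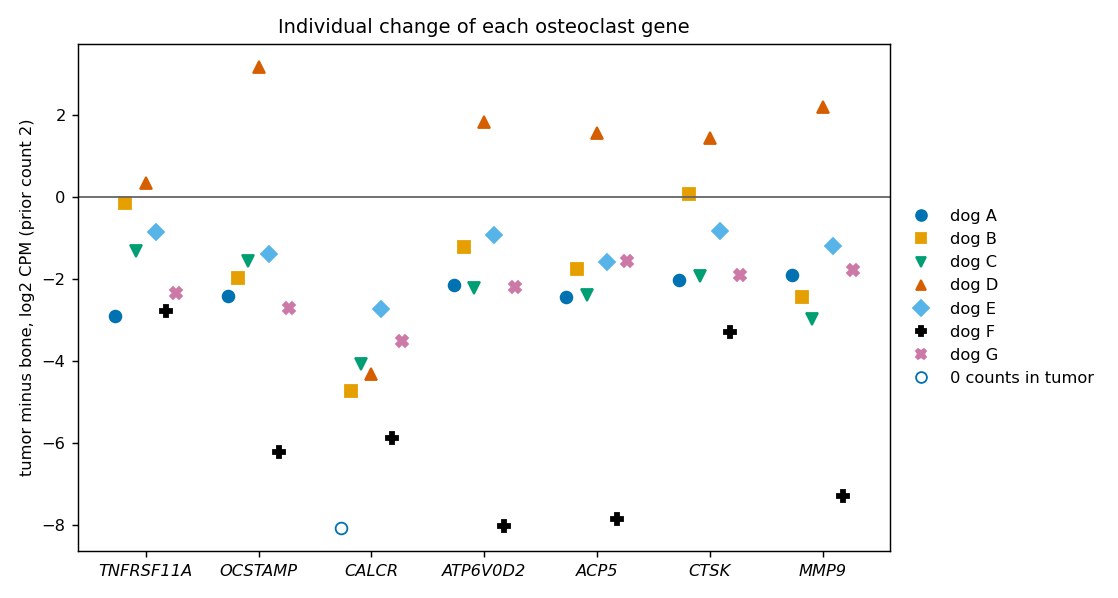
Individual change of each gene in each dog, as tumor minus bone in log2 CPM with a prior count of 2 (y axis), by gene (x axis) and dog (symbol); the open circle marks a tumor with 0 counts, whose value is set by the prior count. The triangles of dog D lie above 0 for all genes but CALCR, and the crosses of dog F lie at or under -5.88 for 5 genes but at -3.29 for CTSK and -2.78 for TNFRSF11A.

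The group comparison was also made without dogs D and F. They were singled out because of these same genes, after their values were seen, so results without them are a description, and leaving out either dog alone still gave 1 called gene. With both dogs left out, the edgeR test called 5 of the 7 genes, CALCR, MMP9, ACP5, ATP6V0D2 and OCSTAMP, against 0.76% of the 27095 genes tested that were lower. The fold changes themselves stayed close: MMP9 was at -2.07 on the log2 scale without the 2 dogs and ACP5 at -1.95. CTSK and TNFRSF11A had an FDR of 0.154 and 0.139 (edgeR) in that fit. Without the dog as a term, the log2 fold changes of MMP9, CTSK, ATP6V0D2 and OCSTAMP shrank to between -0.61 and -0.27, and that of CALCR was -4.42.

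Set against the other tumors, tumor D was high in every member. Its MMP9 was 22.0-fold and its OCSTAMP 21.3-fold the median of the other 6 tumors. ATP6V0D2 stood 14.3-fold above that median, ACP5 10.8-fold, CTSK 7.87-fold and TNFRSF11A 4.86-fold. CALCR, on 25 counts, was 2.88-fold above it and was still below every bone. Tumor D was the highest of the 7 for 6 members and came after tumor E for CALCR.

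Tumor F was the lowest of the 7 tumors for 5 members. ATP6V0D2 was 219-fold under the median of the other tumors, ACP5 75.2-fold, MMP9 63.0-fold and OCSTAMP 40.6-fold. CTSK was only 4.97-fold and TNFRSF11A 2.30-fold under it. For TNFRSF11A, tumors A and F did not differ beyond counting error (8.08 and 7.70 CPM), and tumor G was lower than both. The total of tumor F, 29118261 counts, was the median of the tumor libraries, and depth was not tested for a part in these levels.

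The other 5 tumors kept no single order. Tumor A was in the second place for MMP9 and ACP5 and in the fifth place for TNFRSF11A, and tumor B in the second place for CTSK and in the sixth place for MMP9 and ACP5. Of the 42 pairs of neighbors in the order of the tumors, 9 had a counting interval of their ratio that held 1, and 5 of these 9 were for CALCR. The 2 Greyhounds, D and G, and the 2 Golden Retrievers, A and F, differed in tumor MMP9, at 11472 and 538 CPM in the former and 2494 and 15.8 CPM in the latter. For TNFRSF11A and CALCR, tumors A and F did not differ beyond counting error. The breed and the limb site were not tested for a part in these levels.

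The SD of log2 CPM over the 7 tumors was 3.19 for ATP6V0D2, 2.93 for MMP9, 2.80 for ACP5 and 2.68 for OCSTAMP, and 1.56 for both CTSK and CALCR. TNFRSF11A had the narrowest spread, at 1.16. The value of CALCR rests on 0 to 37 counts and on the scale, since it was 0.36 after the variance stabilizing transformation and 2.17 with a prior count of 0.5, and on the former scale ATP6V0D2 was at 1.99 and OCSTAMP at 1.77. Over the 14389 genes with a mean of at least 1 CPM, the median SD in tumor was 0.598 and the 95th percentile was 2.21, so 4 of the 7 members lay above that percentile. Without tumor F, 0 of the 7 lay above the percentile, then 2.18, and the SDs were 1.84 for MMP9, 1.36 for ACP5, 1.85 for ATP6V0D2 and 1.89 for OCSTAMP. In fold terms the highest tumor exceeded the lowest 1842-fold for ATP6V0D2, 725-fold for MMP9, 575-fold for ACP5, 547-fold for OCSTAMP, 28.9-fold for CTSK and 10.7-fold for TNFRSF11A.

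On the log2 CPM scale with all 7 dogs, each member had a smaller SD over the bones than over the tumors. The SD over the bones was between 0.56 for TNFRSF11A and 0.79 for OCSTAMP, against a median of 0.35 over the same 14389 genes, and each member had a higher SD in bone than at least 77.3% of genes. The highest bone exceeded the lowest between 3.07-fold and 6.06-fold. A wider spread in tumor than in bone was common, found for 85.2% of genes, with a median ratio of the SDs of 1.70. The ratio was between 3.39 and 4.14 for OCSTAMP, ACP5, MMP9 and ATP6V0D2. It was 2.50 for CTSK, 2.24 for CALCR and 2.07 for TNFRSF11A, and 65.0% of genes had a lower ratio than TNFRSF11A. These ratios moved with single dogs and with the scale. Without dog F they were 2.19 for MMP9, 1.64 for ACP5 and 2.21 for both ATP6V0D2 and OCSTAMP, against a median of 1.59 over the genes. Without dog D they were 1.5 for CTSK and 1.3 for TNFRSF11A, against a median of 1.69, and without dog A they were between 4.43 and 7.68 for CTSK, ATP6V0D2, ACP5 and MMP9. Without dogs D and F, ACP5 varied less in tumor than in bone, at 0.64 and 0.90, and CTSK was alike in both, at 0.76 and 0.75. MMP9, ATP6V0D2, OCSTAMP and TNFRSF11A then had ratios of 1.23 to 1.33. The median over the genes was 1.57 in that setting, so every member but CALCR, at 2.34, was below it. After the variance stabilizing transformation, CALCR varied less in tumor than in bone, at 0.36 and 0.48. Bone A was the highest of the 7 for every member. It stood between 1.51-fold, for TNFRSF11A, and 3.76-fold, for MMP9, above the median of the other bones, and without it the SD of MMP9 over the bones was 0.40.

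A dog with high levels in bone did not regularly have high levels in tumor. Pearson's r between the bone and the tumor of the same dog was between -0.09 for CALCR and 0.40 for ATP6V0D2, while the median over 14381 genes was 0.19. For ATP6V0D2 the rank order was nearly the same in both tissues (Spearman's rho 0.93, exact permutation test, two-sided p = 0.00675), but its r had an exact p of 0.333. It was the only 1 of 7 genes tested with p under 0.05. Neither an adjusted value nor the share of all genes with such a p was computed for this relation. Leaving out dogs A and G, the 2 farthest in bone, gave ATP6V0D2 an r of 0.77.

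**Figure D3:**
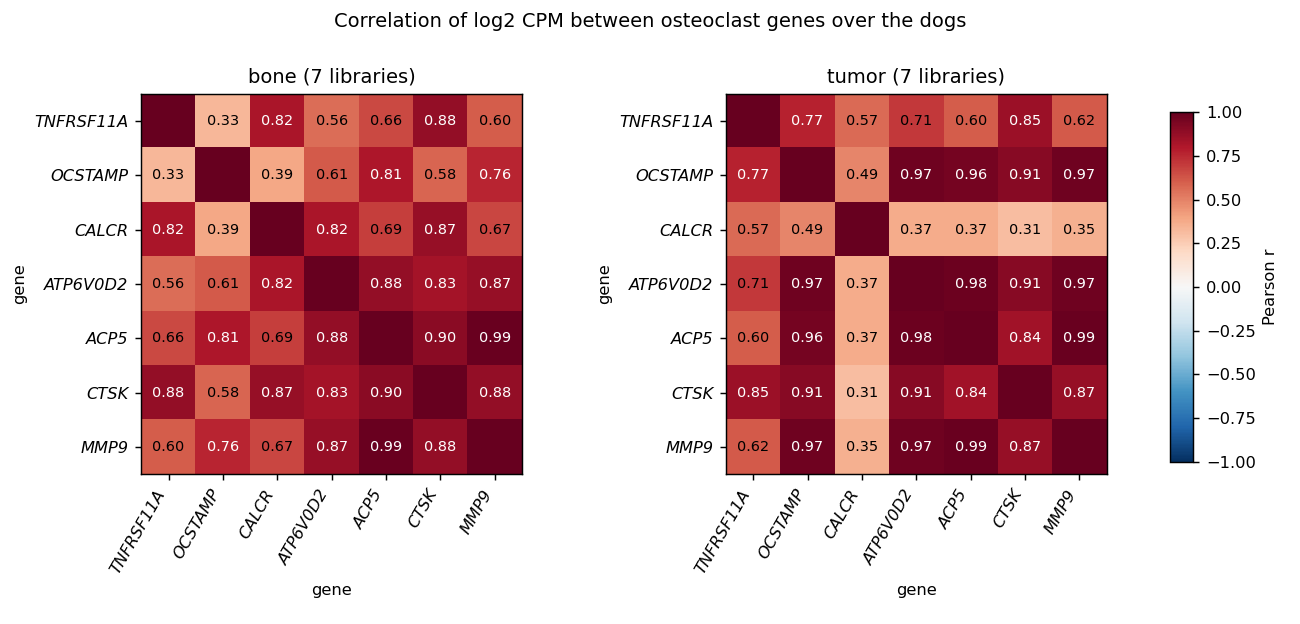
Pearson's r between each pair of the 7 genes over the 7 bone libraries (left) and the 7 tumor libraries (right), computed on log2 CPM; the color scale runs from -1 to 1. In tumor, MMP9, ACP5, ATP6V0D2 and OCSTAMP form a block at 0.96 to 0.99 while CALCR stays at or below 0.57 with every other gene; in bone CALCR reaches 0.87 with CTSK.

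The correlation between members was computed within each tissue. The median r over the 21 pairs was 0.84 in tumor (0.31 to 0.99) and 0.81 in bone (0.33 to 0.99), against a median r between a member and all genes of -0.06 to 0.10. The median was 0.48 in tumor without dogs D and F and 0.55 in bone without dog A. In each tissue 11 of the 21 pairs had an exact permutation p under 0.05, as had 7.99% of all comparisons of a member with a gene in bone and the same percentage in tumor. No pair passed the adjustment over the 14384 genes compared with each member. The smallest adjusted p for any gene was 0.190 (exact permutation tests). So few libraries allow only a limited number of orders, which sets a lowest possible permutation p. After adjustment over 14384 genes, that p could pass only if many genes shared it. The adjusted values of the pairs, here and below, therefore cannot decide for or against a relation. The libraries of a tissue share their normalization and, in tumor, the extremes D and F.

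MMP9 and ACP5 were the closest pair. In tumor r was 0.99 and rho 0.96 (exact permutation tests, two-sided p = 0.000397 and 0.00278, adjusted p = 0.486 for r), and ACP5 was the third of 14384 genes by closeness to MMP9. Left without dogs D and F, the 2 farthest from the median, the pair kept an r of 0.99. In bone r was also 0.99 (exact permutation test, two-sided p = 0.000595, adjusted p = 0.396), and it was 0.95 without bones A and C. The ratio of MMP9 to ACP5 counts was between 1.57 and 2.03 in bone and between 1.21 and 2.92 in tumor, although the ACP5 level spanned 575-fold over the tumors.

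The fusion gene OCSTAMP and the pump gene ATP6V0D2 followed MMP9 and ACP5 in tumor. The 6 pairs among these 4 genes had an r between 0.96 and 0.99 and a rho between 0.86 and 0.96. Without dogs D and F the same pairs had an r between 0.68 and 0.99, with a median of 0.78. In bone, r among the 4 genes was between 0.61 and 0.99. The r of OCSTAMP with ATP6V0D2, 0.61, was -0.65 without bones A and E, the 2 farthest for OCSTAMP. It was 0.25 without bones A and G, the 2 farthest for ATP6V0D2, and 0.78 without dogs D and F.

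CTSK had an r with the same 4 genes in tumor of 0.87 for MMP9, 0.84 for ACP5 and 0.91 for both ATP6V0D2 and OCSTAMP. Without dogs D and F these were 0.44, 0.52, 0.94 and 0.55. In tumor the r of CTSK with TNFRSF11A was 0.85 and rho was 0.79 (exact permutation tests, two-sided p = 0.0169 and 0.0480, adjusted p = 0.694 for r over the genes compared with CTSK). In bone the pair had an r of 0.88 and a rho of 0.96 (exact permutation tests, p = 0.00933 and 0.00278, adjusted p = 0.734 for r). The r of TNFRSF11A with MMP9 and ACP5 in tumor was 0.62 and 0.60 (exact permutation tests, two-sided p = 0.143 and 0.156). It was -0.16 and -0.10 without dogs D and F, and 0.40 and 0.51 without dogs D and G, the 2 farthest for TNFRSF11A. The relation thus varied with the dogs left out. CTSK with TNFRSF11A had an r of 0.52 without dogs D and F.

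The ratios to ACP5 show where the genes part. CTSK counts were between 0.830 and 1.56 times those of ACP5 in bone and between 0.963 and 3.29 times in 6 tumors, but 28.9 times in tumor F. TNFRSF11A counts were between 0.0122 and 0.0363 times those of ACP5 in bone, and reached 1.13 times in tumor F. The ratio of CTSK to TNFRSF11A in tumor F was 25.7, the lowest of the 7 tumors but not far from the 28.5 of tumor C.

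CALCR is described by its r with the other 6 members. In bone this r was between 0.39, with OCSTAMP, and 0.87, with a median of 0.75, and it was highest with CTSK (exact permutation test, two-sided p = 0.00298, adjusted p = 0.437). In tumor its r was between 0.31 and 0.57, with a median of 0.37, and no pair had an exact p under 0.05. Without dogs D and F the median was -0.22. Leaving out dogs A and E, the lowest and the highest for CALCR, raised its r to between 0.57 and 0.88. The tumor values rest on 0 to 37 counts, and the change in correlation between the tissues was not tested.

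**Figure D4:**
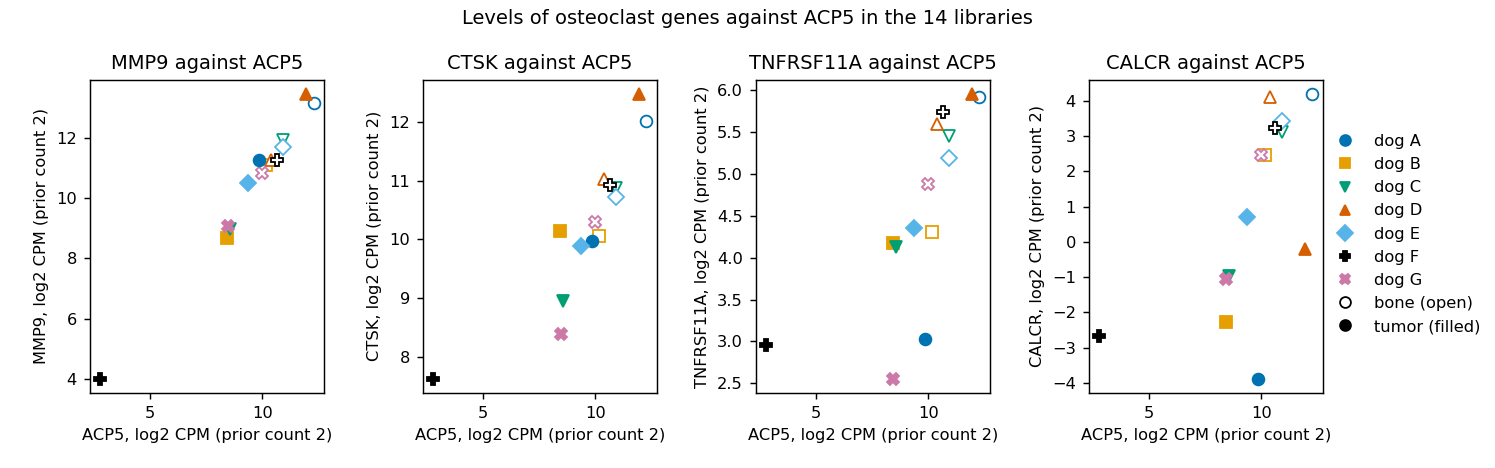
Levels of MMP9, CTSK, TNFRSF11A and CALCR (y axes) against ACP5 (x axes), all as log2 CPM with a prior count of 2, in the 7 bones (open) and 7 tumors (filled) with 1 symbol per dog. MMP9 keeps to 1 line with ACP5 over all 14 libraries, CTSK and TNFRSF11A in tumor F stand above where such a line would lead, and the CALCR of tumor D lies far below the bones with a like ACP5 level.

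Other genes with a pattern like that of the members were ranked by their mean r to the 7 genes. In tumor the first 10 had a mean r between 0.858 and 0.865, and 4 had names: PTPN22, a phosphatase of immune cell signaling, SV2B, a synaptic vesicle protein, PRSS22, a serine protease, and SLC9B2, a sodium-proton exchanger found in osteoclasts. SLC9B2 was at 63.2 CPM in tumor D and 0.507 CPM in tumor F. PTPN22 was between 0.776 and 96.8 CPM over the tumors. SV2B was at most 0.889 CPM in any tumor, so it passed the filter on the mean of all 14 libraries only through bone. In bone the first 10 had a mean r between 0.848 and 0.874, and SIGLEC11, a lectin that binds sialic acid, and EHD3, a protein of endocytic recycling, had names. EHD3 was lower in tumor of all 7 dogs (log2 fold change -1.81, edgeR FDR 0.0169). The closest gene had no name in either tissue, ENSCAFG00000013716 in tumor and ENSCAFG00000028773 in bone. Over the tumors ENSCAFG00000013716 was between 0 and 6.06 CPM, with a median of 0.337 CPM. The places of ENSCAFG00000013716 and SV2B in tumor thus rest on levels near the floor. No gene was among the first 10 in both tissues.

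Few other genes of the pathway could be named. Of 59 listed genes for acid secretion, differentiation signals, transcription, attachment and fusion, 5 were paired with an identifier. SLC9B2 had a log2 fold change of -2.08 (edgeR FDR 0.130), and OSCAR, a costimulatory receptor of osteoclasts, had -1.68 (edgeR FDR 0.252). OSCAR was at 17.0 CPM in tumor D, the highest tumor, and at 0 in tumor F. Tumor D was also the highest and tumor F the lowest for 5 of the 7 members, all but CALCR and TNFRSF11A. FOS, a transcription factor needed for osteoclast formation, had -2.07 (edgeR FDR 0.173). ADAM8, a protease of myeloid cells and osteoclasts, was higher in 6 of 7 tumors (1.54, edgeR FDR 0.121). MMP14, a membrane protease of many cell types, was the only 1 of the 5 to pass the test and was higher in all 7 tumors (1.04, edgeR FDR 0.0190).

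Markers of other cells moved over the tumors as well. No listed macrophage (0 of 12) or T cell gene (0 of 6) was paired with an identifier, so these cells were not measured here. Of the neutrophil list 1 of 8 genes was paired, MPO, at 2.54 CPM in tumor D and 13.3 CPM, the highest tumor, in tumor F. The osteoblast list, with BGLAP and SPP1 paired of 8 genes, was lower in tumor for both (edgeR FDR at most 0.0277), and its sum was 1999.5 to 4815 CPM in bone and 124 to 1448 CPM in tumor, with the lowest sum in tumor F. All 5 osteocyte genes were paired and SOST and MEPE passed the test, both lower. Their sum was 273 to 4649 CPM in bone and 3.90 to 467 CPM in tumor, at 103 CPM in tumor D and 50.7 CPM in tumor F, and FGF23 was at 0 in 3 tumors including both.

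The 4 of 5 adipocyte genes paired were all lower in tumor. Their sum was 319 to 2183 CPM in bone, and over the tumors it was highest in tumor D, at 129.5 CPM, and lowest in tumor F, at 2.63 CPM. The sum of the 5 proliferation genes was 25.5 to 62.2 CPM in bone and 137 to 912 CPM in tumor, with its highest value in tumor F and 269.9 CPM in tumor D. ESM1, the 1 of 6 endothelial genes paired, was lower in tumor (edgeR FDR 0.00195) and was alike in tumors D and F, at 18.9 and 19.4 CPM. EPB42, the 1 of 5 erythroid genes paired, did not pass the test (edgeR FDR 0.165) and was at most 1.68 CPM in any library. The part of these cells in the osteoclast gene levels was not tested.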

How the data were processed

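Polyadenylated RNA of the bone and tumor of 7 dogs was sequenced, giving 14 libraries. Per the labels and the methods, reads were trimmed (Trimmomatic, 0.39 in the labels), aligned to CanFam3.1 (HISAT2 2.2.1) and counted on Ensembl genes (StringTie 1.3.3) by the authors, and the deposited values are raw counts. Strand and multi-mapping settings are not given in the sources used here, which leaves counts of genes with near-identical copies or overlapping neighbors uncertain.

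Genes with at least 1 count were tested with edgeR 4.0.16 (R 4.3.3; TMM, quasi-likelihood, dog and tissue as terms, Benjamini-Hochberg adjustment over all genes). DESeq2 1.42.0 gave the Wald test, the base mean and the variance stabilizing transformation. Log2 CPM had a prior count of 2. Differences within a dog have exact binomial (Clopper-Pearson) 95% intervals, which cover counting error only; 3 counts were the floor where a library had 0. Correlations were tested by exact permutation in Python 3.11.15, with ranks from SciPy 1.17.1, over genes with a mean of at least 1 CPM. The main test was tested on simulated data, where the share of unchanged genes among its calls stayed under the FDR threshold with dispersions on the mean trend and exceeded it several times over when dispersions differed from gene to gene.

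The members and the lists were chosen with earlier results of these data known. Besides the members, the genes named are those with a name among the 10 with the highest mean r to the members in each tissue, the paired genes of the pathway lists, and examples of the marker lists, more than 2 for some. 1 marker list is not reported here. Symbols came from the study's supplementary tables, with no value from them. Bone and tumor form pairs since each pair is from 1 animal. Deviations from the tissue mean correlated with a median of 0.114 within dogs (0.0500 to 0.162) and -0.0214 between dogs (-0.248 to 0.233). The 2 ranges overlapped. Alternatives covered the test, normalization, filter, pairing, thresholds, scale, correlation measure and the omission of each dog.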

Additional observations from a re-analysis of the deposited data

Results flagged for a closer look

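In 21 sets of 7 values (each member in bone, in tumor and as tumor minus bone), 4 had a highest or lowest value whose gap to its neighbor was more than 0.568 of the whole range. Chance gives such a gap in about 1 of 20 independent sets, but these sets are not independent, since tumor minus bone reuses the levels of both tissues. All flags but that of bone A are of dog F. ACP5 in bone was highest in dog A, at 12.28 log2 CPM, with a gap of 0.590 of the range. ACP5 in tumor was lowest in dog F, at 2.79 log2 CPM (0.615 of the range). Tumor minus bone in dog F was lowest for ACP5, at -7.85 (0.576 of the range), and for ATP6V0D2, at -8.04 (0.591 of the range), where the tumor held 5 counts.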

How the results depend on the processing

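No fold change turned direction under the alternatives run, and CALCR was called in each. Correlations of single pairs did: without dogs D and F, r over the tumors was -0.16 for TNFRSF11A with MMP9, -0.10 for TNFRSF11A with ACP5, and between -0.30 and -0.20 for CALCR with MMP9, CTSK, ACP5 and ATP6V0D2. Between bone and tumor of a dog, r went from 0.13 to -0.13 for ACP5 and from 0.04 to -0.78 for OCSTAMP without the 2 farthest bones, and from -0.09 to 0.42 for CALCR. Over the bones, r of OCSTAMP without dogs A and E was between -0.67 and -0.05 for CALCR, ATP6V0D2, CTSK and TNFRSF11A, and without dogs A and B it was -0.30 for CTSK. The DESeq2 Wald test called 2038 genes in place of 866 and 7 members in place of 1. It put MMP9 at -2.07, CTSK at -1.25, ACP5 at -2.00, ATP6V0D2 at -1.81, OCSTAMP at -1.98 and TNFRSF11A at -1.42 on the log2 scale, all past the FDR threshold. Without dogs D and F, an alternative added after seeing the data, 339 genes and 5 members were called, with MMP9 at -2.07, ACP5 at -1.95, ATP6V0D2 at -1.76 and OCSTAMP at -2.03. Leaving out each dog in turn gave between 551 genes, without dog B, and 750 genes. The cause of these differences was not tested. With no replicate block, that is without the pairing by dog, 1100 genes and 1 member were called, and the log2 fold changes were -0.61 for MMP9, -0.51 for CTSK, -1.09 for ACP5, -0.42 for ATP6V0D2, -4.42 for CALCR, -0.27 for OCSTAMP and -1.06 for TNFRSF11A.

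The median SD of the members over the tumors was 2.68. It was 1.77 after the variance stabilizing transformation, 1.01 without dogs D and F, and between 1.61, without dog F, and 2.94 when each dog was left out. The median correlation over the tumors, 0.84, was 0.48 without dogs D and F, 0.52 without the 2 farthest libraries of each pair, and between 0.59, without dog D, and 0.86 when each dog was left out. Over the bones it was 0.81, with a median Spearman's rho of 0.64, 0.61 without the 2 farthest libraries, and between 0.55, without dog A, and 0.86. With 1 library per tissue and dog, and tumor counts of 0 to 37 for CALCR and of 5 and 11 for ATP6V0D2 and OCSTAMP in dog F, the depth limits how closely these low levels can be ranked.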
